A study of Brassica rapa with 28 samples.

Results

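Transcripts of darkened leaves were compared between BrphyB-3 mutant and wild-type plants of Brassica rapa, a crop relative of Arabidopsis. The members of the comparison were all 7 libraries labelled dark, of 28 in the series: 4 of wild-type R-o-18 and 3 of the mutant. The question was which transcripts differ between the genotypes in a leaf that has been kept without light. The run of gene IDs from BraA03000001 to BraA03000424 is given apart from all others. The reason is that its genes had been seen to be low in the mutant in these same samples. Chromosome, here A03, and gene order are read from the IDs alone, without coordinates. Of the IDs of this run, 253 had enough counts to be tested, out of 24992 tested IDs in the whole table.

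Both genotypes had the strain label R-o-18, and seeds of both came from the RevGenUK collection. The mutant is a single line with the allele BrphyB-3, so a difference belongs to that line as a whole and not only to the mutated gene. Plants were 3 weeks old at the first sampling and were kept in days of 16 h of light and 8 h of darkness. One leaf in the light gave both the pre and the 24hr samples. A second leaf of the same plants was wrapped in foil at the time of the pre sample. The dark sample was punched from that leaf when it was unwrapped, 72 h after wrapping, and its recovery sample was punched a further 24 h later. Each sample was taken 5 h after lights on, and each replicate, called a pool here, joined 28 mm2 punches of 3 plants. Pools were numbered 3 to 6 in the wild type and 3 to 5 in the mutant, and the same pools were sampled at all 4 stages. The dark comparison therefore rests on separate plants within each group. The other stages share plants with it, but not libraries.

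Phytochrome B is a photoreceptor of red and far-red light. In Arabidopsis, red light turns it into an active form that moves into the nucleus and leads to the breakdown of PIF transcription factors. PIF proteins promote elongation and leaf senescence. In darkness the active form slowly reverts to the inactive one, and leaves kept dark lose chlorophyll and take on a senescence programme. The gene IDs here could not be paired with gene names: 0 of the 48826 IDs matched the reference gene table. The photoreceptor gene and leaf markers are therefore not analysed here, the labels were not checked against the targeted gene, and genes are described by their values.

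The dark libraries held between 4928822 and 12039568 counts, with 7839529 to 11093994 in the mutant. The share held by the top 20 genes of a library was 7.07% ± 0.637 (SD, n = 4) for wild-type and 7.61% ± 0.310 (SD, n = 3) for mutant leaves. The exact two-sided permutation p, over 35 arrangements of the genotypes, was 0.286. With all libraries thinned to 4928822 counts, 26276.5 ± 620 IDs (SD, n = 4) were detected per wild-type library and 25712.3 ± 725 (SD, n = 3) per mutant library, with an exact permutation p of 0.343. Both values had a Benjamini-Hochberg adjusted exact p of 0.343, and the smallest p that this design allows is 0.0286.

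The genotypes did not fall apart as wholes. The first principal component of log2 CPM, counts scaled to library size, over the 7 libraries held 31.4% of the variance. On it, the wild-type pools 3, 4, 5 and 6 lay at -59.6, 64.6, 13.8 and 72.8, and the mutant pools 3, 4 and 5 at -54.9, 29.1 and -65.9. Wild-type pool 3 thus lay beside mutant pools 3 and 5 on this component. Those 3 libraries also had the fewest detected IDs of the 7, between 25109 and 25511. The second component held 27.4% of the variance and set wild-type pool 3, at -61.85, far from mutant pool 3, at 80.23. Mutant pool 5 lay at -18.46 on it. Pearson correlations of log2 CPM across genes had a median of 0.935 for pairs of different genotype, 0.939 for wild-type pairs and 0.947 for mutant pairs. They are a description, since genes are not independent replicates.

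In the dark leaf, 11 genes differed between the genotypes at an adjusted p under 0.05, which was 0.044% of the 24992 tested. Of these, 6 (0.024%) were higher and 5 (0.02%) lower in the mutant. The A03 run held 1 of the 11, a lower one, which was 0.395% of its 253 tested IDs. The other 10 were 0.0404% of the 24739 tested IDs outside it, with 6 higher and 4 lower. The test was edgeR's quasi-likelihood test in a model of all 28 libraries, with Benjamini-Hochberg adjustment over all tested genes. It takes the 28 libraries as independent, although the same pools were sampled at all 4 stages. The spread thus rests on fewer separate pools than libraries, and the p-values may be too small. At an unadjusted p under 0.05 there were 2345 IDs (9.38%), with 1276 higher (5.11%) and 1069 lower (4.28%). In all 11 genes every mutant library lay on one side of every wild-type library. Across all tested IDs, the mutant lay wholly above in 922 (3.69%) and wholly below in 791 (3.17%).

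The count depended on the test and on single pools. A bias-adjusted form of the same test called 50 genes, 24 higher and 26 lower, of which 3 lay in the run and 9 were among the 11. A fit to only the 7 dark libraries called 0, with 1338 IDs at an unadjusted p under 0.05, while DESeq2 called 220 in the full design. Leaving out one pool at all stages gave 1 call without mutant pool 3, 3 without wild-type pool 5, 5 without wild-type pool 6 and 8 without mutant pool 5. It gave 30 without wild-type pool 3, 36 without wild-type pool 4 and 40 without mutant pool 4.

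**Figure D1:**
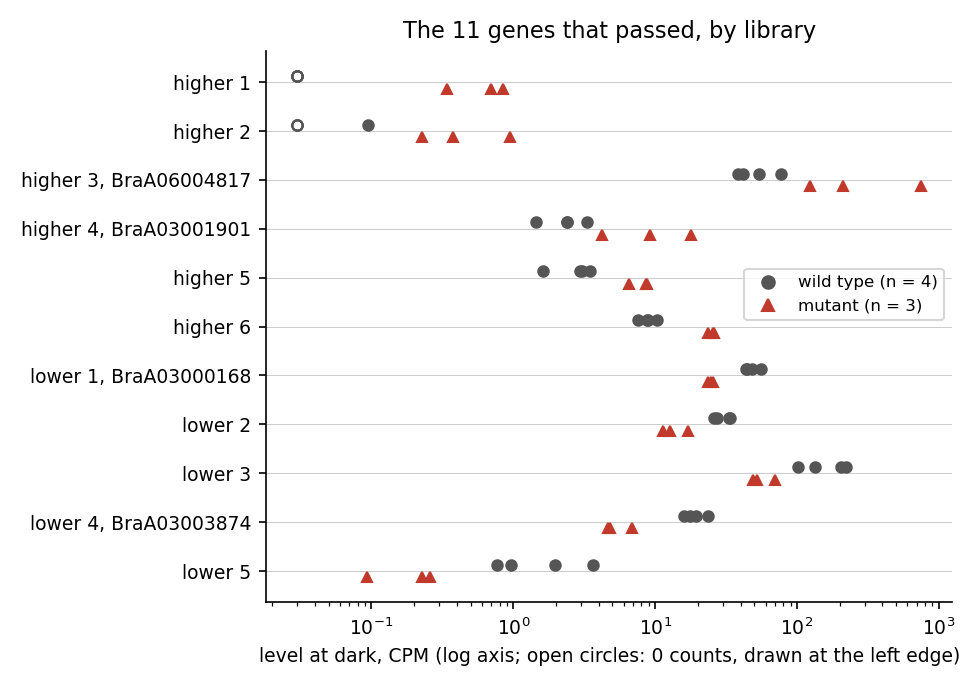
CPM on a log axis of the 11 genes called in the dark leaf, one row per gene, ordered by log2 fold change, with circles for the 4 wild-type libraries, triangles for the 3 mutant libraries and open symbols at the left edge for 0 counts. The groups do not overlap in any row, and in BraA03001901 the nearest libraries of the genotypes stand at 3.29 and 4.21 CPM.

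The largest rise among well-measured genes was in BraA06004817. Its CPM in wild-type pools 3 to 6 was 41.7, 77.4, 54.3 and 38.2, and in mutant pools 3 to 5 it was 750.3, 211.9 and 123.0. All mutant libraries were above the wild type, but mutant pool 3 was 3.54 times as high as the next mutant library. The means were 52.9 ± 17.7 (SD, n = 4) and 361.8 ± 339 (SD, n = 3), a log2 fold change of 2.78 with SE 0.51 and an edgeR adjusted p of 0.0377. Without mutant pool 3 the log2 fold change was 1.66 with an edgeR adjusted p of 0.219. The edgeR adjusted p was also 0.0659, 0.21 and 0.165 without wild-type pools 3, 5 and 6, where the log2 fold change was 2.67, 2.79 and 2.64.

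The second largest rise was in BraA03001901, which lies on A03 outside the run. Its CPM was 1.44, 3.29, 2.38 and 2.38 in wild-type pools 3 to 6 and 17.8, 4.21 and 9.26 in mutant pools 3 to 5. The lowest mutant library was close to the highest wild-type one, and mutant pool 3 was again the highest. The log2 fold change was 2.16 with SE 0.38 and an edgeR adjusted p of 0.0219. It was 1.52 without mutant pool 3, with an edgeR adjusted p of 0.25, and 2.24 without mutant pool 5, with an edgeR adjusted p of 0.0558. The edgeR adjusted p was 0.0659, 0.126 and 0.135 without wild-type pools 3, 5 and 6, where the log2 fold change was 1.97, 2.18 and 2.16.

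The other 4 higher genes were of 2 kinds. One pair was read in every dark library of both genotypes. The first of this pair had a CPM of 8.83, 7.56, 10.3 and 8.85 in wild-type pools 3 to 6 and 25.8, 23.6 and 26.2 in the mutant, a log2 fold change of 1.50 with SE 0.23 and an edgeR adjusted p of 0.0159. The second had 3.45, 2.96, 3.05 and 1.62 in wild-type leaves and 8.56, 6.55 and 8.80 in mutant leaves, a log2 fold change of 1.53 with SE 0.28 and an edgeR adjusted p of 0.0377. The highest wild-type library stood well below the lowest mutant library in both.

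The other pair was at the limit of detection in the dark leaf. One gene had 0 counts in all 4 wild-type libraries and 8, 9 and 3 counts in mutant pools 3, 4 and 5. Against a floor of 3 counts per wild-type library, its mutant mean CPM was at least 1.96-fold higher, with an edgeR adjusted p of 0.0193. The other gene had 0, 0, 1 and 0 counts in wild-type leaves and 11, 4 and 2 in mutant leaves. Its ratio of summed counts, each relative to the summed library sizes, was 22.4 with a 95% exact interval from 3.51 to 935, and its edgeR adjusted p was 0.0377. Both the interval and the floor cover counting error only.

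Among the lower genes outside the run, BraA03003874 had the largest fall of those well measured. Its CPM was 19.3, 15.9, 17.6 and 23.7 in wild-type pools 3 to 6 and 6.92, 4.77 and 4.69 in mutant pools 3 to 5. The lowest wild-type library was more than 2 times the highest mutant one. The means were 19.1 ± 3.32 (SD, n = 4) and 5.46 ± 1.26 (SD, n = 3), a log2 fold change of -1.80 with SE 0.22 and an edgeR adjusted p of 0.00059. Of the 11 genes, it alone kept an edgeR adjusted p under 0.05 in all 7 fits that left out one pool. With only the 7 dark libraries its log2 fold change was -1.86 with an edgeR adjusted p of 0.212.

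BraA03000168 was the called gene inside the run. It had 43.3, 55.7, 47.8 and 44.2 CPM in wild-type pools 3 to 6 and 25.8, 24.7 and 23.4 in mutant pools 3 to 5. The libraries of each genotype lay close together, at means of 47.8 ± 5.64 (SD, n = 4) and 24.6 ± 1.17 (SD, n = 3). The log2 fold change was -0.95 with SE 0.16 and an edgeR adjusted p of 0.0193. It was -0.95 without wild-type pool 5, -0.99 without mutant pool 3 and -0.92 without mutant pool 5, with edgeR adjusted p-values of 0.0749, 0.0646 and 0.0909.

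Of the 3 other lower genes, one had 27.4, 33.2, 33.5 and 26.1 CPM in wild-type leaves and 11.3, 16.9 and 12.7 in mutant leaves, a log2 fold change of -1.14 with SE 0.19 and an edgeR adjusted p of 0.0193. Another had 223.0, 203.7, 133.0 and 102.0 CPM in wild-type leaves and 48.9, 70.0 and 51.9 in mutant leaves, a log2 fold change of -1.54 with SE 0.26 and an edgeR adjusted p of 0.0193. Its wild-type libraries spread over more than 2-fold, and the lowest still lay above every mutant library. The last had 0.963, 1.97, 0.762 and 3.66 CPM in the wild type, and 3, 1 and 2 counts in the mutant pools. Its wild-type to mutant ratio of summed counts was 9.5 with a 95% exact interval from 4.16 to 26.7, and its edgeR adjusted p was 0.0219. The 7 called genes given without an ID kept an edgeR adjusted p under 0.05 in 2 to 5 of the 7 fits that left out one pool.

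In bulk leaf tissue, fewer cells of a type and less RNA per cell cannot be told apart. The sample descriptions carry letters whose meaning is not given, and 2 of these letters hold a dark library of each genotype, pool 3 with pool 3 and pool 5 with pool 5. All 11 genes had the same direction in both of these pairs. This follows from groups that do not overlap, so it is no check on the letters. For BraA06004817 the log2 difference was 4.17 in the first pair and 1.18 in the second, and for BraA03001901 it was 3.46 and 1.88. For BraA03003874 it was -1.45 and -1.87, and for BraA03000168 it was -0.75 and -1.02. The other 3 libraries had no partner of the other genotype.

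**Figure D2:**
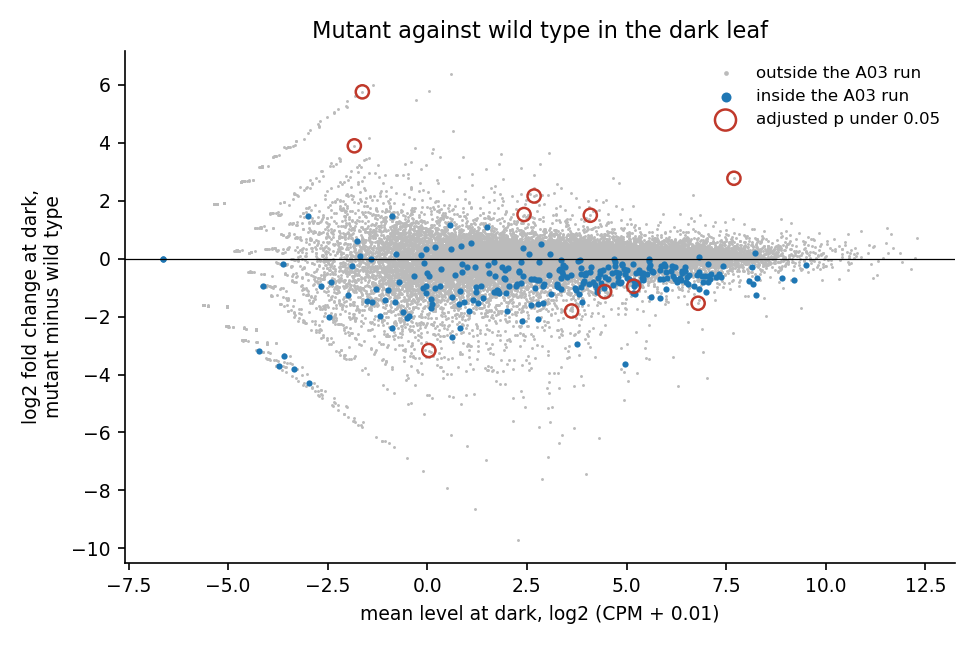
Log2 fold change of mutant against wild type in the dark leaf on the vertical axis against the mean level as log2 (CPM + 0.01) on the horizontal axis, one point per tested ID, with IDs of the A03 run and the 11 called genes marked. The called genes span a wide range of levels, and points of the run sit mostly below 0, with a median of -0.66 against 0.03 outside it.

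Across all tested IDs the fitted log2 fold changes had a median of 0.02, and the 5th and 95th percentiles were -1.43 and 0.85. A change of at least 2-fold in either direction was fitted for 2957 IDs (11.8%), so size alone did not set the called genes apart. The median SD of log2 CPM within a group was 0.405 in wild-type leaves and 0.362 in mutant leaves. Of IDs read in each library of one genotype and at 0 in each library of the other, 7 were read in the mutant, of which 1 was called, and 8 in the wild type, of which 0 were called. These are few beside the 24992 tested IDs. Only 1 of the 7 and 0 of the 8 had at least 4 counts in each library that read them. They are therefore not taken as particular to a genotype.

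The other stages show which of the 11 differences were also present in light. At pre, 24hr and recovery, 23 (0.092%), 22 (0.088%) and 37 (0.148%) genes were called. Of these, 11 (4.35% of the tested IDs there), 6 (2.37%) and 13 (5.14%) lay in the run, and 12 (0.0485%), 16 (0.0647%) and 24 (0.097%) outside it. Of the 5 genes lower in the dark leaf, 3 were called lower at each of the other 3 stages as well. These were BraA03003874, BraA03000168 and the gene with 27.4 CPM in wild-type pool 3. Of the 6 genes higher in the dark leaf, 0 were called at pre, 1 at 24hr and 1 at recovery, which was BraA03001901 both times.

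BraA03003874 had log2 fold changes of -2.28, -2.35 and -2.43 at pre, 24hr and recovery. Its lowest and highest wild-type CPM were 32.5 and 52.2 at pre, 39.7 and 53.4 at 24hr and 39.6 and 60.7 at recovery, all above the dark libraries. Mutant libraries had 7.20 and 11.2 at pre, 8.29 and 11.7 at 24hr and 7.65 and 10.4 at recovery. The transcript was thus lower in the dark leaf in both genotypes, and the groups did not overlap at any of the 4 stages.

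BraA03000168 had log2 fold changes of -0.84, -1.06 and -0.97 at pre, 24hr and recovery, with edgeR adjusted p-values of 0.0285, 0.0023 and 0.0070. The other gene called lower at all stages had -1.01, -1.06 and -1.37. BraA03001901 was higher in the mutant by 1.64, 1.95 and 2.08 on the log2 scale, with edgeR adjusted p-values of 0.0663, 0.0165 and 0.0107. BraA06004817 was higher by 1.96, 2.11 and 1.37, with edgeR adjusted p-values of 0.18, 0.142 and 0.527. Its mutant pool 3 was the highest mutant library at all 4 stages, with 573.8, 478.2 and 419.2 CPM at pre, 24hr and recovery.

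**Figure D3:**
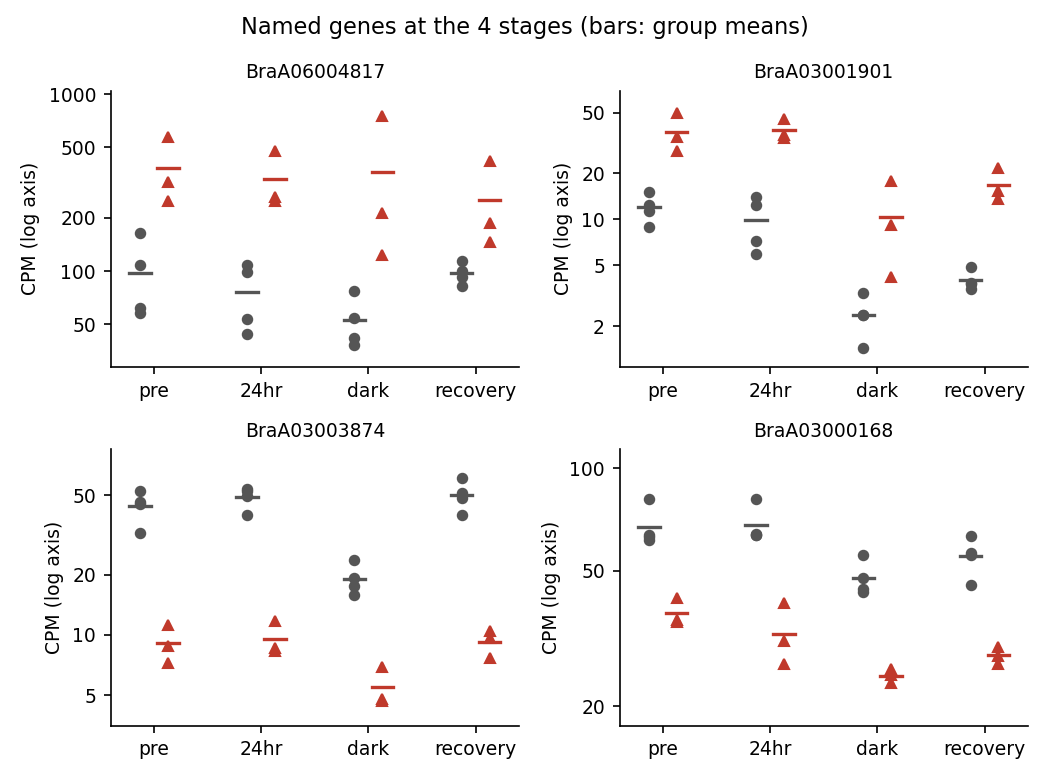
CPM on a log axis of the 4 genes given by ID at the 4 stages, with grey circles for wild-type libraries, red triangles for mutant libraries and bars for group means. The genotypes do not overlap at any stage in these 4 genes, and mutant pool 3 of BraA06004817 is the top triangle at each stage.

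The remaining 6 called genes had fitted differences in light that were nearer to 0 or of the other sign. The fold change of the gene at 25.8, 23.6 and 26.2 CPM in the dark mutant was 0.25, 0.24 and -0.22 on the log2 scale at pre, 24hr and recovery. The gene at 48.9, 70.0 and 51.9 CPM in the dark mutant had 0.38, 0.23 and 0.28, so dark was the only stage with a fitted value below 0. The lowest-count gene among the lower ones had 0.03, -0.36 and -0.54.

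Whether a genotype difference was particular to the dark leaf was tested directly, as the log2 fold change at dark minus its mean at the other 3 stages. This contrast also spans leaf identity, since pre and 24hr came from the other leaf. The model has no term for the pools, which were the same plants at all stages, and with such a term 9 genes were called, 7 of them shared. It called 9 genes (0.036%), 5 more positive at dark (0.02%) and 4 more negative (0.016%), with 2582 (10.3%) at an unadjusted p under 0.05. None of the 9 lay in the run, which held only 1.01% of the tested IDs, so this says little about it. Of the 9, 2 were also among the 11. The count was 0 without wild-type pool 5, 3 without wild-type pool 6, 4 without mutant pool 3, 18 without mutant pool 5, 38 without wild-type pool 3 and 40 without wild-type pool 4.

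The first of the 2 shared genes was the lower gene at 48.9, 70.0 and 51.9 CPM in the dark mutant. Its pre level was 122.5 ± 7.28 CPM (SD, n = 4) in wild-type and 160.0 ± 28.2 (SD, n = 3) in mutant leaves, against 165 ± 57.3 (SD, n = 4) and 56.9 ± 11.4 (SD, n = 3) at dark. The mutant mean was thus lower at dark than at pre, and the wild-type mean was not. The difference of log2 fold changes was -1.84 with SE 0.30 and an edgeR adjusted p of 0.0162.

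The second was the gene with 0 counts in the dark wild type. Its pre level was 2.50 ± 0.596 CPM (SD, n = 4) in wild-type and 1.48 ± 0.397 (SD, n = 3) in mutant leaves, and in the dark leaf it was read only in the mutant. Its edgeR adjusted p for the difference was 0.0162. The size of that fitted difference depends on the prior count, because one group is at 0.

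The 3 other genes with a more negative difference at dark were of one pattern, in which transcripts were nearly absent from wild-type leaves in light and were read in mutant leaves there. In wild-type leaves one had 0 counts at both pre and 24hr, 33.6 ± 9.99 CPM (SD, n = 4) at dark and 0.376 ± 0.340 at recovery. Mutant leaves had 10.4 ± 5.35 (SD, n = 3), 8.43 ± 5.03, 80.1 ± 31.8 and 8.10 ± 5.54 CPM from pre to recovery. At dark its wild-type libraries had 20.4, 36.5, 44.4 and 33.1 CPM and its mutant libraries 45.8, 108.5 and 85.9, which do not overlap.

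The next had 0.348, 0.265, 31.6 ± 6.29 and 0.739 CPM in the wild type at the 4 stages, and 17.4 ± 11.2, 17.7 ± 10.0, 55.8 ± 30.8 and 8.78 ± 6.73 in the mutant. The last had 0.598, 0.228, 186 ± 81.7 and 1.30 CPM in the wild type, and 31.1 ± 23.8, 14.4 ± 7.28, 377 ± 63.6 and 21.0 ± 10.8 in the mutant. None of the 3 was called at dark itself, where the fitted log2 fold changes were 1.25, 0.81 and 1.02. The edgeR adjusted p-values of the difference between dark and the other stages were 0.0184, 0.0162 and 0.0162. In all 3 genes mutant pool 3 had the lowest mutant level at pre, dark and recovery, and in the first and last of them at 24hr too.

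The 4 remaining genes, more positive at dark, had lower means at dark than at pre in both genotypes. One went from 780 ± 39.9 CPM (SD, n = 4) at pre to 1.64 ± 1.38 at dark in the wild type, and from 532 ± 62.3 (SD, n = 3) to 11.04 ± 9.28 in the mutant. Its dark mutant libraries were uneven, at 18.6, 13.8 and 0.686 CPM, and overlapped the wild type at 1.36, 3.61, 1.143 and 0.426. Another went from 81.2 ± 23.7 to 5.31 ± 1.91 CPM in the wild type and from 39.1 ± 15.3 to 12.3 ± 3.37 in the mutant. The last 2 went from 23.6 to 4.51 and from 5.84 to 0.596 CPM in the wild type, and from 14.2 to 8.21 and from 4.62 to 2.07 in the mutant. The mutant mean was below the wild-type mean at pre and at recovery and above it at dark in each of these 4 genes. At 24hr it was below in 3 of them, and in the gene at 0.596 CPM in the dark wild type it was above, at 7.96 against 6.38 CPM. The edgeR adjusted p-values of the difference were 0.0349, 0.0162, 0.0499 and 0.0499 in this order.

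Inside the A03 run most differences were of one sign. The run was chosen on these samples, so its values are a description with no test. Of its 253 tested IDs, 232 (91.7%) had a log2 fold change below 0 at dark, against 46.6% outside. The median was -0.66, with quartiles at -1.02 and -0.36, against 0.03 outside. A fitted change of at least 2-fold was found in 68 IDs of the run (26.9%) and in 2889 outside (11.7%). The mutant libraries lay wholly below the wild-type libraries in 89 IDs (35.2%) and wholly above in 1 (0.395%), against 2.84% and 3.72% outside.

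The values changed sharply at the last ID of the run, in part by construction, since the run was chosen on these same samples. The last 25 tested IDs inside, from number 382 on, had a median log2 fold change of -0.71, and all 25 were below 0. The first 25 tested IDs outside, numbered 425 to 460, had a median of 0.08 with 10 below 0. The mutant lay wholly below the wild type in 13 of the former and 0 of the latter. The first 250 tested IDs outside, which include those 25, had a median of 0.04. All 3369 tested A03 IDs outside the run, which include both sets, had 0.01.

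Within the run the size varied with ID number. In successive stretches of 50 tested IDs the medians were -0.39, -0.66, -0.68, -0.82 and -0.70, and the mutant lay wholly below in 5, 16, 26, 20 and 20 of the 50. The first stretch, IDs 3 to 73, was thus the weakest. Tested IDs were cut in ID order, within each chromosome and within the scaffold IDs, into 495 whole windows of 50. This left 242 IDs at series ends in none. The 5 windows lying wholly in the run had the 5 lowest medians, but the run was chosen for low values in these samples. The 489 windows wholly outside ranged from -0.18 to 0.21, with at most 6 IDs in which the mutant lay wholly below.

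**Figure D4:**
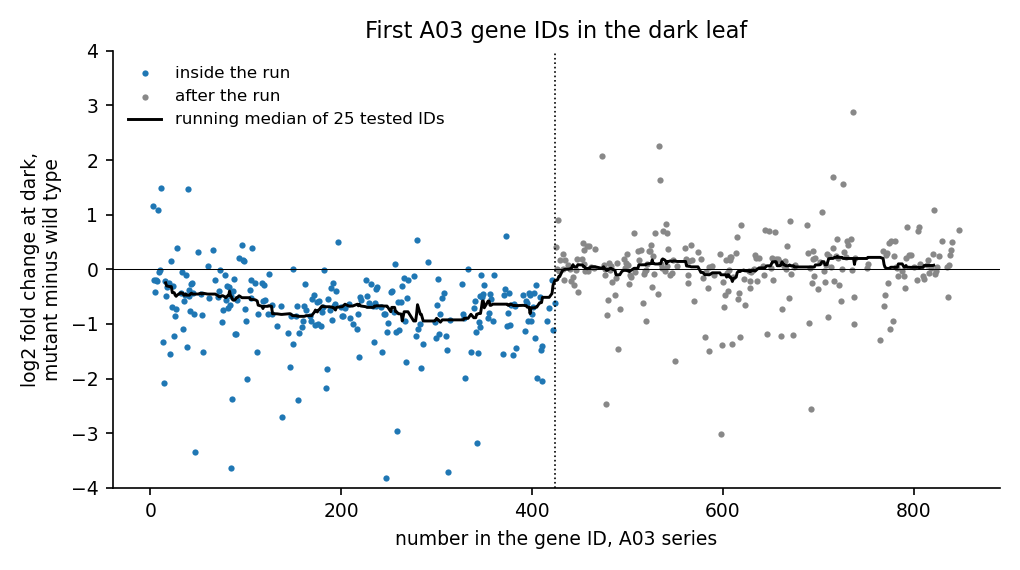
Log2 fold change of mutant against wild type in the dark leaf for tested IDs at the start of A03, in order of ID number on the horizontal axis, with a running median of 25 tested IDs as a line and a dotted line at the end of the run. Points lie mostly below 0 up to the end of the run and around 0 after it, and 3 IDs fall outside the vertical range from -4 to 4.

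The shift was present at all levels of expression. In 3 classes of mean CPM of about equal size, a measure that also depends on transcript length, the median log2 fold change was -0.95 in the low, -0.68 in the middle and -0.61 in the high class. In the high class, from 28.8 to 724 CPM, 83 of 85 IDs were below 0 and 38 had the mutant wholly below. In the low class, which starts at a mean of 0 CPM, these were 69 and 17 of 84. Values by class are not given for IDs outside the run, so the median of the low class is not read as a stronger shift.

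The run showed the same shift in light. Its median log2 fold change was -0.57, -0.65, -0.66 and -0.65 from pre through 24hr and dark to recovery, and 229 (90.5%), 232 (91.7%), 232 (91.7%) and 229 (90.5%) of its tested IDs were below 0. Outside, 47.1%, 47.9%, 46.6% and 51.2% were. The difference between dark and the mean of the other stages had a median of 0.04 in the run and 0.02 outside. Its unadjusted edgeR p was under 0.05 in 18 IDs of the run (7.11%) and in 2564 outside (10.4%).

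Library by library, the run was uneven within the wild type and even within the mutant. At dark it took 1.17%, 1.52%, 1.67% and 1.45% of the counts in wild-type pools 3 to 6, and 0.902%, 0.917% and 0.931% in the mutant pools. The median deviation of its IDs from their mean over the 7 libraries was -0.03, 0.37, 0.49 and 0.16 on the log2 scale in the wild type, and -0.28, -0.32 and -0.35 in the mutant. The mutant lay below the lowest wild-type library, which was pool 3. Over the 4 stages the SD among wild-type pools was 0.185 to 0.228, and among mutant pools it was 0.00971 to 0.0511.

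The order of the wild-type pools was the same at each of the 4 stages, with pool 3 lowest, then 6, then 4, and pool 5 highest, although pools 4 and 5 were level at 24hr (0.421 and 0.423). These are libraries of the same plants, so the stages are not independent of one another in this respect. The order also depended on the stretch. In IDs 3 to 73, wild-type pool 3 was at -0.26, below all mutant pools, which were at -0.18 to -0.13. Wild-type pool 6 was just above them at -0.09, and pools 4 and 5 were at 0.26 and 0.58. In IDs 156 to 237 all 4 wild-type pools were at 0.22 to 0.42, and the mutant was at -0.44 to -0.32. In the first 50 tested IDs after the run, all 7 libraries were between -0.11 and 0.11. Leaving out each pool in turn moved the median of the whole run between -0.72 and -0.59.

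**Figure D5:**
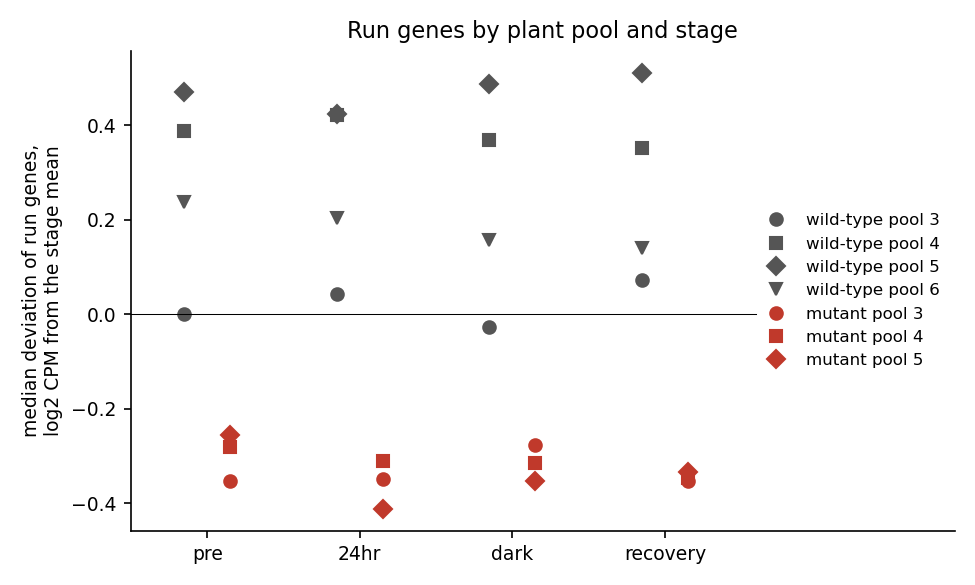
Median deviation in log2 CPM of the tested IDs of the A03 run from their mean over the libraries of a stage, for each pool at each of the 4 stages, with grey symbols for the wild type, red for the mutant and one shape per pool number. The mutant pools lie together between -0.41 and -0.26, and the wild-type pools keep one order, from pool 3 at -0.03 to 0.07 to pool 5 at 0.42 to 0.51.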

How the data were processed

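RNA was measured by sequencing of poly(A) libraries from 28 leaf samples, per the labels' protocols. The submitters' processing notes name bcl2fastq 2.17.1.14, Trimmomatic 0.36, Bowtie2 and HTSeq. The genome build, the annotation and whether strand was used are not given in the sources used here, so counts of paralogous, overlapping and antisense genes carry doubt. The authors deposited one table of raw counts, whole numbers with no normalization. It has 48826 gene IDs, of which 12503 were at 0 in every library, and 0 columns had no sample. The lowest chi-square per gene between any pair of dark libraries was 18.4, so none was treated as a repeat of another.

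In R 4.3.3, filterByExpr of edgeR 4.0.16 kept 24992 IDs with 99.9% of the counts, and libraries were scaled by TMM. The quasi-likelihood test, at its default setting, used one model of 8 group means for all 28 libraries, with p-values adjusted by Benjamini-Hochberg over all tested IDs. The common biological coefficient of variation was 0.365. The bias-adjusted form of the test and a plant pool term for dark against the other stages were alternatives added after seeing the data. The choice between the forms was made on simulated counts, after the counts from both had been seen. There the default kept the share of false calls nearer the threshold. Those counts were drawn independently for each library, with no effect of the pools, so they do not settle which form suits these data. CPM values are computed with TMM factors. An SE is approximate, computed from the log2 fold change and the F statistic of its test. Fold changes are fitted with a prior count of 0.125, and log2 CPM with one of 2. Thinning used 1 draw.

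Alternatives were DESeq2 1.42.0, RLE scaling, no filter, only the dark libraries, a replicate block, the description letter, limma-voom (limma 3.58.1) and leaving out each pool. For the 4 genes given by ID, a prior count of 2 was a further alternative. It changed their fitted log2 fold changes and left their p-values as they were. The members, the A03 run and the tests were chosen with earlier results of these data known. With IDs unpaired to names, the rule printed 4 IDs. They were the 2 largest rises and the largest fall outside and inside the run, among called genes with non-overlapping groups and a mean of at least 10 CPM in the higher group, which 7 of the 11 had.

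Same-numbered dark libraries of the 2 genotypes had deviations from their group means that correlated at -0.0519, 0.243 and 0.0899 across genes. The numbers were not taken to pair samples. Values for differently numbered libraries are not given beside these, so they cannot decide whether samples were paired.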

Additional observations from a re-analysis of the deposited data

Results flagged for a closer look

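Dixon's test was applied to 48 sets of 4 wild-type values, 44 from the called genes at each stage and 4 from library measures at dark. It set a library apart in 4 sets, where chance gives about 1 set in 20. BraA03000168 had 81.1 CPM in wild-type pool 3 at pre, against 61.7 to 63.8 in the others, and 81.5 at 24hr, against 63.6 to 64.4. The gene with 11, 4 and 2 counts in the dark mutant had 2.25 CPM in wild-type pool 3 at pre, against 2.96 to 3.04. At dark it had 0.0952 CPM in wild-type pool 5, which is 1 count against 0 in the others. With a single read the test always sets that library apart, so this set says nothing of its spread.

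The genotype difference at dark departed from its mean at the other 3 stages in 9 genes, tested by the edgeR contrast. The log2 departures were -1.84 and 6.21 in the genes also called at dark, the latter fitted against a group at 0. They were -6.61, -4.25 and -4.19 in the genes nearly absent from the wild type in light. The value of -6.61 also depends on the prior count, since that gene had 0 wild-type counts at pre and 24hr. They were 3.50, 2.29, 1.82 and 2.16 in the genes whose mean was lower at dark than at pre in both genotypes.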

How the results depend on the processing

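The count of 11 genes at dark became 220 with DESeq2, 0 with only the 7 dark libraries (1338 at an unadjusted p under 0.05), 19 with the replicate block, 21 with the description letter, 29 with limma-voom, 50 with the bias-adjusted test and 1 to 40 when leaving out each pool. Inside the run, 1 became 35, 0 (109 unadjusted), 4, 3, 3, 3 and 0 to 3 in the same order. Outside it, 10 became 185, 0 (1229 unadjusted), 15, 18, 26, 47 and 1 to 38. The 9 genes of dark against the other stages became 249 with DESeq2, 18 with the replicate block, 15 with the letter, 5 with limma-voom, 9 with the plant pool as a term and 0 to 40 when leaving out each pool, and that contrast could not be fitted with only the dark libraries. RLE scaling gave 11 and 7 for these counts at dark and against the other stages, and no filter gave 12 and 8. The cause of these moves was not tested. Fits with only the dark libraries have fewer samples to estimate the spread, and the full fit takes repeated samples of the same pools as independent. The 4 genes given by ID kept their direction under all 16 alternatives, with log2 fold changes of 1.66 to 3.19 for BraA06004817, 1.52 to 2.52 for BraA03001901, -2.02 to -1.70 for BraA03003874 and -1.01 to -0.88 for BraA03000168. With only the dark libraries, none of the 4 had an adjusted p under 0.05. The median of the run moved between -0.72 and -0.59 when leaving out each pool. The median of the genes called lower, taken without the one in the run, moved from -0.84 to -0.49 at pre and from -1.06 to -0.71 at 24hr. The difference in the share of the 20 most abundant genes was 0.293 to 0.756 percentage points and that in detected IDs -966 to -262 when leaving out each pool. Depth limits the 3 called genes with at most 11 counts in each mutant library. Replicate numbers were not taken to pair the genotypes, so a change under the replicate block is not read as an effect of pairs.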

Other observations

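The 50 genes of the bias-adjusted test give a wider but less certain set, chosen after its values were seen. The 24 higher genes had log2 fold changes from 0.70 to 3.66 (median 1.84), and the groups did not overlap in 20 of them. Over all tested IDs, 3.69% lay wholly above and 3.17% wholly below, and these genes were picked on the same values. Mutant pool 3 was the highest mutant library in 13 of the 24, a count given without its share over all tested IDs. The 26 lower genes had log2 fold changes from -6.86 to -0.95 (median -2.75), and the groups did not overlap in 23. In light, the median fitted difference of these lower genes was 0.07 at pre and 0.12 at 24hr, and it was -0.77 at recovery.

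Wild-type pool 6 was the highest wild-type library in 14 of the 26 lower genes. In 5 of them it was more than 5 times the next wild-type library, which was true of no other library in either direction. In these 5 genes pool 6 had 9.11 to 81.9 CPM, the other wild-type pools 0 to 3.45 and the mutant pools 0.0865 to 0.468. Without pool 6, the other wild-type libraries still lay wholly above the mutant in 3 of the 5 genes and overlapped it in 2. The share of all tested IDs in which pool 6 was highest is not given. Its counts here are therefore not read as a trait of these genes.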
